A study of Mus musculus with 7 samples.

Results

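ATAC-seq maps open chromatin by letting Tn5 transposase cut accessible DNA in nuclei. The regions described here were called as peaks in untreated mouse embryonic fibroblasts (MEFs, day 0) and in embryonic stem cells (ESCs), and not in at least 2 of the libraries of days 1, 3 and 6 between them. They were chosen by these calls, after touching or overlapping peaks of all 7 libraries had been merged into regions. The rule found 788 members among 104346 merged regions (0.755%), and made up 6.26% of the 12590 regions with both a day 0 and an ESC peak. The remaining 11802 of these lacked a peak on none or 1 of the 3 days, and they serve below as the other MEF and ESC regions.

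The MEFs carried a tetO-driven cassette of Pou5f1, Klf4, Sox2 and Myc (OKSM) in Col1a1 and the rtTA*M2 transactivator in ROSA26. They received doxycycline at 2 µg/mL and were collected on days 1, 2, 3, 6 and 9, whereas the day 0 MEFs and the ESCs were left untreated. The ESC library is labelled as the Bruce-4 line, although the genotype entered for it is that of the MEFs. Doxycycline-treated cultures are mixtures of cells, and a peak lost from all cells cannot be told apart from one kept by too few of them to be called. Each time-point has 1 library, so no difference between time-points has a replicate check and no p-value was computed.

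During reprogramming, the fibroblast programme is silenced and the pluripotency network is switched on, and only a minority of the cells complete the path. Promoters rich in CpG, many of them bound by ETS family factors, NRF1 or YY1, are open in most cell types, whereas enhancers bound by AP-1 and TEAD factors are typical of fibroblasts. A site that is open at both ends of the path but not called between them belongs to neither the lost nor the gained class.

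The peak lists were of unequal length, between 27074 peaks in ESCs and 61241 on day 0, and the narrowest peak was 200 bp wide in each library. A missing call means that no peak was detected at a depth the files do not give, not that the site was closed. The labels were only partly mirrored at the promoters of 8 MEF and 8 ESC marker genes, counted by a peak within 1 kb of a transcription start site (TSS). Day 0 had a peak at 6 of the 8 MEF markers and 3 of the 8 ESC markers. The ESC library had a peak at 1 of the 8 MEF markers, Twist1, and at 1 of the 8 ESC markers, Zfp42, and none within that distance of Pou5f1, Nanog or Sox2. Since every member needs a peak in the library labelled ESCs, no count of members can be given without it.

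Windows of 300 bp around the centre of 5 members are shown for the kinds of site found, read from the plus strand of GRCm38 (mm10). The Gpc6 intron (chr14:117930626-117930925) and an intergenic region on chromosome 3 (chr3:9398322-9398621) were called on day 0 and in ESCs alone and were among the widest of that kind. The Sparc intron (chr11:55418111-55418410) lies in a fibroblast gene. The windows near Thap4 (chr1:93732083-93732382) and Bmp7 (chr2:172940412-172940711) lie beside a TSS. None of them overlaps an annotated exon. Capitals mark every match to one of the 15 motifs searched below, namely AP-1, TEAD and Runx in Gpc6, Klf and Sox on chromosome 3, Klf, TEAD and AP-1 in Sparc, TEAD at Thap4, and NFY, GC box and TEAD at Bmp7.
Gpc6 intron: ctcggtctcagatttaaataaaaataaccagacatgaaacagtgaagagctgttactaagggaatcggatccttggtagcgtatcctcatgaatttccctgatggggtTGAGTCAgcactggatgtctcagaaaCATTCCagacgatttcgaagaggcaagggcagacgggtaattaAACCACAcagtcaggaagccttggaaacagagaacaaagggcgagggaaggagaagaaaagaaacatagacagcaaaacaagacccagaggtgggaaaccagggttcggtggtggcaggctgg
Chromosome 3 intergenic: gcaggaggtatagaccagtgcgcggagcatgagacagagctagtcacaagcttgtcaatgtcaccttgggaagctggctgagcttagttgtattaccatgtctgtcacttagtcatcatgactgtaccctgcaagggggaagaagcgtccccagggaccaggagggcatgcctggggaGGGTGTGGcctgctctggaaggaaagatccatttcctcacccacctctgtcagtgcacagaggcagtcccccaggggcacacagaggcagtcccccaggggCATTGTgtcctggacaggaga
Sparc intron: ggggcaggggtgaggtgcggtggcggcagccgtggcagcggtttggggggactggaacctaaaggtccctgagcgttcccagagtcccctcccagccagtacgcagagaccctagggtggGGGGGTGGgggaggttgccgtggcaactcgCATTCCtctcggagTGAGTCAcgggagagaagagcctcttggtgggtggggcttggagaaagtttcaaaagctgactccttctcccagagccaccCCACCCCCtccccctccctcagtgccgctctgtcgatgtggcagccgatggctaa
Thap4 TSS-proximal: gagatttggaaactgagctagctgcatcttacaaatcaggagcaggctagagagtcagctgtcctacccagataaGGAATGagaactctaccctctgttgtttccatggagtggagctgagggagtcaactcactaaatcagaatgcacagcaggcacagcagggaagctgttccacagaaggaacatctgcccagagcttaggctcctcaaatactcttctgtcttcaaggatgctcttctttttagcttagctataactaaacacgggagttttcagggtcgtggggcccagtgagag
Bmp7 TSS-proximal: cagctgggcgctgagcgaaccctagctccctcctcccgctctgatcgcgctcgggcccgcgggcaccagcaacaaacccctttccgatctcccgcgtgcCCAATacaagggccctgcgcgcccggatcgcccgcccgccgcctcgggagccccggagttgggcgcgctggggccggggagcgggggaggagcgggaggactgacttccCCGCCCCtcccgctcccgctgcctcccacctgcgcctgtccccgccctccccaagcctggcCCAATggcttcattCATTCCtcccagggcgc

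The calls that defined the members are given as a description. No peak was called on any of days 1, 3 and 6 in 341 members (43.3%), and in 447 members a peak was called on 1 of the 3 days. That day was day 1 for 121 members, day 3 for 148 and day 6 for 178. The most frequent pattern over all 7 libraries was a peak on day 0 and in ESCs alone, with 290 members (36.8%). The next patterns added a single library, day 6 in 84 members, day 3 in 81 and day 1 in 81. With only the peaks of at least 300 bp, 484 regions met the rule.

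Days 2 and 9 did not enter the rule. A day 2 peak was called in 119 members, 15.1% with an exact (Clopper-Pearson) 95% interval of 12.7 to 17.8%, which covers counting error only. A day 2 peak was called in 29.5% of all merged regions and in 91.4% of the other MEF and ESC regions. A day 9 peak was called in 180 members, 22.8% (20.0 to 25.9%), compared with 29.7% of all merged regions and 93.5% of the other MEF and ESC regions. The members lay below both sets in each of these libraries. Members were chosen for lacking a peak on at least 2 of days 1, 3 and 6. The other MEF and ESC regions lacked a peak on none or 1 of these days. Days 2 and 9 are therefore no independent check of the gap between these 2 sets. With the 27074 widest peaks of each library, which gave 765 members, the day 2 share rose to 35.0% (31.6 to 38.5%), against 40.4% of all regions merged from these peaks and 95% of the other MEF and ESC regions. The day 9 share rose to 42.6% (39.1 to 46.2%), against 40.6 and 96.7%, and was not below that of all regions. These 765 members were chosen anew from the cut lists. The cut shortened the lists of days 1, 3 and 6 (45709, 48087 and 44855 peaks) more than those of days 2 and 9 (33174 and 33007). It can thus add missing calls on the days of the rule, and whether the higher shares come from this was not tested. Of the 341 members without a peak on days 1, 3 and 6, 20 (5.87%, 3.62 to 8.91%) had a day 2 peak and 35 (10.3%, 7.25 to 14.0%) had a day 9 peak.

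The day on which a member was called went with its day 9 call. A day 9 peak was found in 24 of the 121 members called on day 1 (19.8%, 13.1 to 28.1%), in 49 of the 148 called on day 3 (33.1%, 25.6 to 41.3%) and in 72 of the 178 called on day 6 (40.4%, 33.2 to 48.0%). The intervals of the day 1 and the day 6 members did not overlap. The day 2 shares of the same 3 sets were 19.8, 24.3 and 21.9%, with overlapping intervals. Members within 1 kb of a TSS had a day 9 peak more often (31%, 25.8 to 36.6%) than members elsewhere (17.8%, 14.5 to 21.5%). The other MEF and ESC regions showed the same order, with 96.1% near a TSS and 83.8% elsewhere. So did those among them that lacked 1 day (61.9 and 44.9%), and the order is not particular to members.

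**Figure D1:**
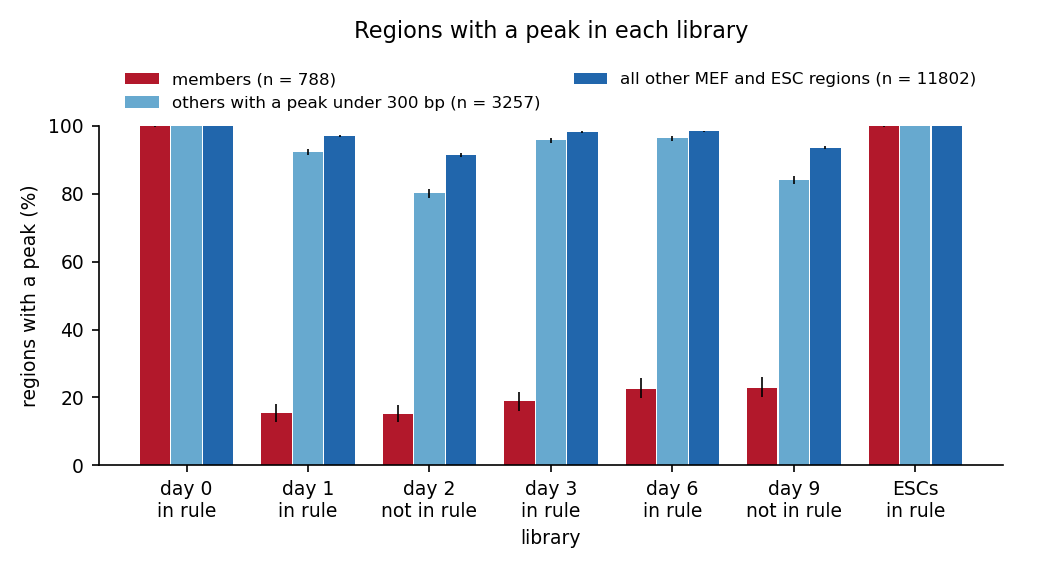
Share of regions with a peak in each of the 7 libraries for the members, the other MEF and ESC regions with a day 0 or ESC peak under 300 bp, and all other MEF and ESC regions, with exact 95% intervals. On days 2 and 9, which the rule did not use, 15.1 and 22.8% of the members had a peak, against 80.1 and 84.0% of the other regions with a narrow peak.

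Members had narrow peaks, which were called from the same reads as the rule and are given as a description. The widest day 0 peak in a member had a median of 290 bp, compared with 679 bp in the other MEF and ESC regions, and the widest ESC peak a median of 265 bp compared with 510 bp. The narrower of both had a median of 220 bp in members and 491 bp in the others. A width of exactly 200 bp, the smallest in the files, was found for 15.4% of the day 0 peaks and 20.6% of the ESC peaks of members, compared with 14.0 and 11.1% over all merged regions, and 30 members had this width in both libraries. The peaks of members on days 2 and 9, where called, were narrow too, with medians of 233 and 240 bp. The day 0 and the ESC peak overlapped directly in 771 members (97.8%), and in 394 (50.0%) the overlap covered at least 50% of both peaks.

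Just outside the rule were 758 regions that lacked a peak on 1 of the 3 days. Their narrower peak had a median of 245 bp, against 225 bp in the 447 members lacking 2 days and 214 bp in the 341 lacking 3. A day 2 peak was called in 47.6% of these 758 regions, in 22.1% of the members lacking 2 days and in 5.87% of those lacking 3.

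**Figure D2:**
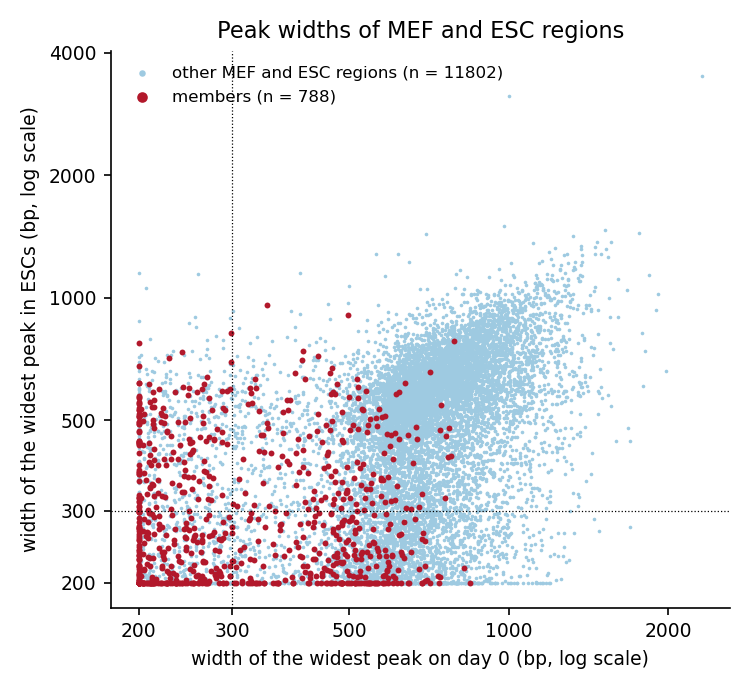
Width of the widest day 0 peak against the widest ESC peak of each region in bp, both on log scales, for the 788 members and the 11802 other MEF and ESC regions, with dotted lines at 300 bp. Both peaks were at least 300 bp wide in 153 members, and the remaining members lie below or to the left of a dotted line.

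The share of MEF and ESC regions that were members depended on the width of the narrower peak. It was 18.7% (17.2 to 20.2%) at 200 to 249 bp, 10.6% at 250 to 299 bp, 6.41% at 300 to 399 bp, 1.56% at 400 to 599 bp and 0.0871% (0.0180 to 0.254%) at 600 bp or more. Only 3 of the 3444 regions of the widest class were members. Within each of the first 4 width classes the share was higher for regions more than 1 kb from a TSS, for example 25.2% (22.8 to 27.6%) against 12.7% (11.0 to 14.5%) at 200 to 249 bp. At 600 bp or more, 3 of 194 distal regions and 0 of 3250 regions near a TSS were members, and the count of 0 allows a share of up to 0.113%.

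**Figure D3:**
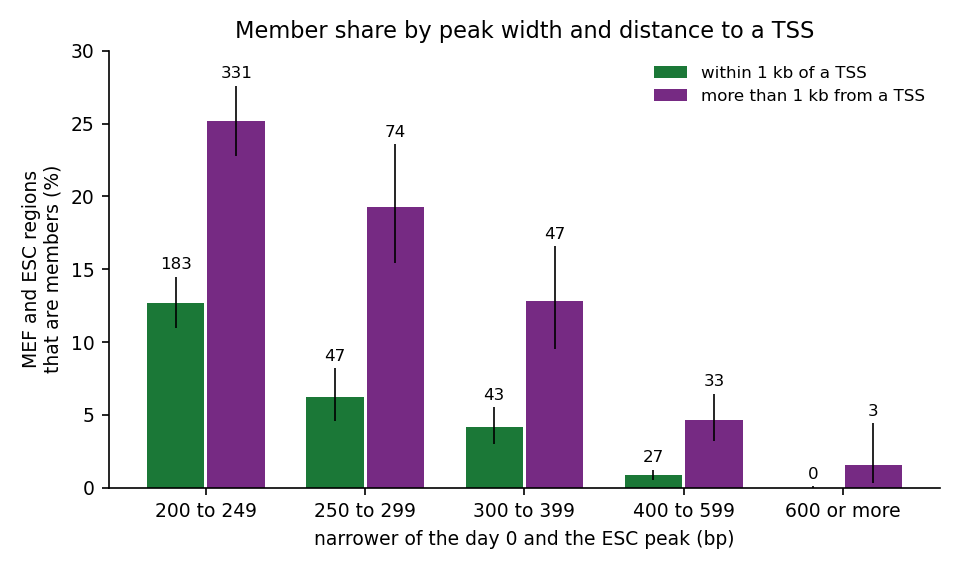
Share of MEF and ESC regions that were members in 5 classes of the narrower of the day 0 and the ESC peak, for regions within 1 kb of a TSS and farther away, with exact 95% intervals and the number of members above each bar. The share falls from 25.2 to 1.55% for distal regions and from 12.7 to 0% for regions near a TSS.

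Members were less often promoters than the other regions open in both cell types. Of the members, 300 (38.1%, 34.7 to 41.6%) lay within 1 kb of a TSS, compared with 79.0% (78.2 to 79.7%) of the other MEF and ESC regions and 18.8% of all merged regions. Among regions with a day 0 or ESC peak under 300 bp, the shares were 36.2% (32.5 to 40.1%) for members and 60.3% (58.6 to 62.0%) for the others. Of the 488 members away from a TSS, 228 lay in introns, 183 were intergenic and 77 overlapped an exon. These were 28.9, 23.2 and 9.77% of all members. Of the 2482 others away from a TSS, the counts were 1047, 1068 and 367, or 8.87, 9.05 and 3.11% of all others. The percentages count all regions of a set, so they depend on the TSS shares above. Introns were the largest class of distal members, whereas intergenic sites slightly outnumbered introns in the distal others. Of the 341 members missing on all 3 days, 31.1% (26.2 to 36.3%) lay within 1 kb of a TSS.

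Members near promoters lay beside the TSS, rather than on it, more often than the other regions did. The region contained a TSS in 203 of the 300 TSS-proximal members (67.7%, 62.1 to 72.9%) and in 94.7% of the TSS-proximal others, or 88.2% (86.7 to 89.6%) of those with a peak under 300 bp. A longer region contains a TSS more readily, and the sets were not matched by length. At all positions, the merged region had a median of 530 bp in members and 804 bp in the others. It was 701 bp in the others with a peak under 300 bp. A total of 254 members lay within 1 kb of a protein-coding TSS. On the missing days among days 1, 3 and 6, 184 of them (72.4%, 66.5 to 77.8%) had no peak at all within 1 kb of that TSS, and 36 (14.2%) had another peak there on every missing day. For the latter, the missing call concerned a position beside a promoter that was still called.

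The gap from a member to the nearest peak on a missing day had a median of 9526, 8759 and 9596 bp on days 1, 3 and 6. A peak lay within 500 bp of 60 of the 667 members missing on day 1 (9.00%), 56 of 640 on day 3 (8.75%) and 58 of 610 on day 6 (9.51%). Of the members, 18 (2.28%) lay within 10 kb of another member. These gaps and distances were not computed for other regions, so they have no comparison. Over 20 chromosomes, the members' share of the MEF and ESC regions was highest on chromosome 14, with 53 of 491 (10.8%, 8.19 to 13.9%), and lowest on chromosome X, with 8 of 305 (2.62%, 1.14 to 5.10%).

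Base composition differed less once regions were split by their distance to a TSS. The 300 bp window at the centre of a member had a median of 8 CpG, compared with 24.0 in the other MEF and ESC regions. Within 1 kb of a TSS the medians were 23.0 and 27.0, and elsewhere they were 5 and 7. More than 50% of the window was repeat-masked in 2.92% of members (1.86 to 4.35%), 0.696% of the others and 9.11% of all merged regions.

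Near a TSS, the shares of several motif letters differed between members and the other regions. The ETS letters CCGGAAG, a string bound by ETS factors, were found in 11 of the 300 TSS-proximal members (3.67%, 1.84 to 6.47%). Other ETS sites, without the whole string, were not searched. The other MEF and ESC regions near a TSS had them in 19% (18.2 to 19.8%), those with a peak under 300 bp in 15.3% (13.8 to 17.0%), and all merged regions near a TSS in 11.7%. The YY1 letters AAGATGGC were found in 3 of the 300 (1.00%, 0.207 to 2.89%), compared with 5.29 and 5.15% of both comparison sets and 3.56% of all merged regions near a TSS. The NRF1 motif, common in CpG-rich promoters, was present in 2.67% (1.16 to 5.19%), compared with 10.2 and 7.85% (6.69 to 9.12%) and with 5.84% of all merged regions near a TSS. The GC box GGGGCGG, bound by Sp and Klf factors, did not show such a gap to the narrow regions, with 39.7% (34.1 to 45.4%) in members and 40.0% (37.9 to 42.2%) in the narrow others. It was found in 49.1% (48.0 to 50.1%) of all other MEF and ESC regions near a TSS, above the members' interval, and in 33.8% of all merged regions near a TSS. NFY letters were found in 27.7% (22.7 to 33.1%) of these members, 36.1% (35.1 to 37.0%) of the others and 26.4% of the narrow others. The AP-1 letters went the other way, with 7.67% (4.92 to 11.3%) in members and 3.86% (3.48 to 4.27%) in the others. The narrow others had 5.04% (4.12 to 6.11%), overlapping the members, and all merged regions near a TSS 9.19%.

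The difference in ETS letters was also present in strata chosen after the data were seen. Among regions near a TSS with a peak under 300 bp, 6 of 230 members held them (2.61%, 0.963 to 5.59%), below the narrow others. With a TSS inside the region, they were found in 9 of 203 members (4.43%, 2.05 to 8.25%) and in 16.3% (14.6 to 18.1%) of the narrow others. With at least 20 CpG in the window, they were found in 10 of 177 members (5.65%, 2.74 to 10.1%) and in 16.7% (14.8 to 18.8%) of the narrow others. For the NRF1 letters with at least 20 CpG, the intervals of members (4.52%, 1.97 to 8.71%) and narrow others (10.3%, 8.70 to 12%) met at their ends, and with a TSS inside the region they overlapped (3.94%, 1.72 to 7.62% against 8.43%, 7.17 to 9.84%). For the YY1 letters with at least 20 CpG, the intervals overlapped too (1.69%, 0.351 to 4.87% against 5.55%, 4.38 to 6.92%). With a TSS inside the region, the YY1 intervals did not overlap (1.48%, 0.306 to 4.26% against 5.66%, 4.62 to 6.86%). The 758 regions lacking 1 day had ETS letters in 8.03% (5.10 to 11.9%) of their windows with at least 20 CpG. In all their windows near a TSS, they had ETS letters in 7.51% (5.09 to 10.6%). NRF1 letters were found there in 5.96% (3.81 to 8.81%) and YY1 letters in 2.85% (1.43 to 5.04%). Each of these intervals overlapped that of the TSS-proximal members, so the low shares are not particular to members.

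Farther than 1 kb from a TSS, the intervals of the members' motif shares overlapped those of all other MEF and ESC regions for 13 of the 15 motifs, the GC box and NRF1 being the exceptions. The GC box was found in 9.65% (7.18 to 12.6%) of distal members, 16.2% (14.8 to 17.7%) of the distal others and 3.72% of all distal regions. The distal others with a peak under 300 bp had it in 11.3% (9.61 to 13.1%), which overlapped the members' interval. The AP-1 letters TGANTCA, bound by Fos and Jun dimers, were found in 22.8% (19.1 to 26.8%) of distal members and 25.3% (23.6 to 27.0%) of the distal others, and in 25.4% of all distal regions. The TEAD letters GGAATG were found in 29.0% (25 to 33.2%) and 23.7% (22.1 to 25.5%), with intervals that overlapped narrowly, and in 23.3% of all distal regions. The CTCF motif, of a factor that anchors chromatin loops, was found in 4.93% (3.18 to 7.24%) of distal members. It was found in 7.67% (6.65 to 8.79%) of the distal others and 2.64% of all distal regions. The distal others with a peak under 300 bp had it in 10.1% (8.52 to 11.9%), above the members' interval. The octamer letters ATGCNAAT, bound by Pou5f1, and the Sox letters CATTGT were found in 2.87 and 16.2% of distal members in 3.45 and 13.5% of the distal others, and in 6.57 and 18.5% of all distal regions. The NRF1 letters were found in 0 of 487 distal members, which allows a share of up to 0.755%. They were found in 2.15% (1.61 to 2.80%) of the distal others and in 0.181% of all distal regions. Over all windows, Klf letters (GGGNGTGG) were found in 20.1% of members and 22.1% of the others, CRE letters (TGACGTCA) in 1.14 and 2.98%, Esrrb letters (CAAGGTCA) in 2.80 and 0.917%, Runx letters (TGTGGTT) in 4.96 and 3.43%, E-box letters (CACGTG) in 6.61 and 9.55% and NFY letters (CCAAT) in 28.1 and 34.9%. All merged regions had them in 14.7, 0.739, 1.98, 8, 4.97 and 32.7%. These shares pool all positions, and members were less often near a TSS. Farther than 1 kb from a TSS, members had these letters, in the same order, in 18.3, 1.03, 3.29, 5.54, 6.37 and 28.3%. The distal others had them in 20.6, 1.66, 1.62, 6.49, 7.18 and 30.4%, and all distal regions in 13.4, 0.412, 2.17, 8.85, 4.29 and 32.8%. An octamer match with a C at its free base also holds the NFY letters. Such matches are letters in a window and were not tested as binding sites. All were searched on both strands.

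**Figure D4:**
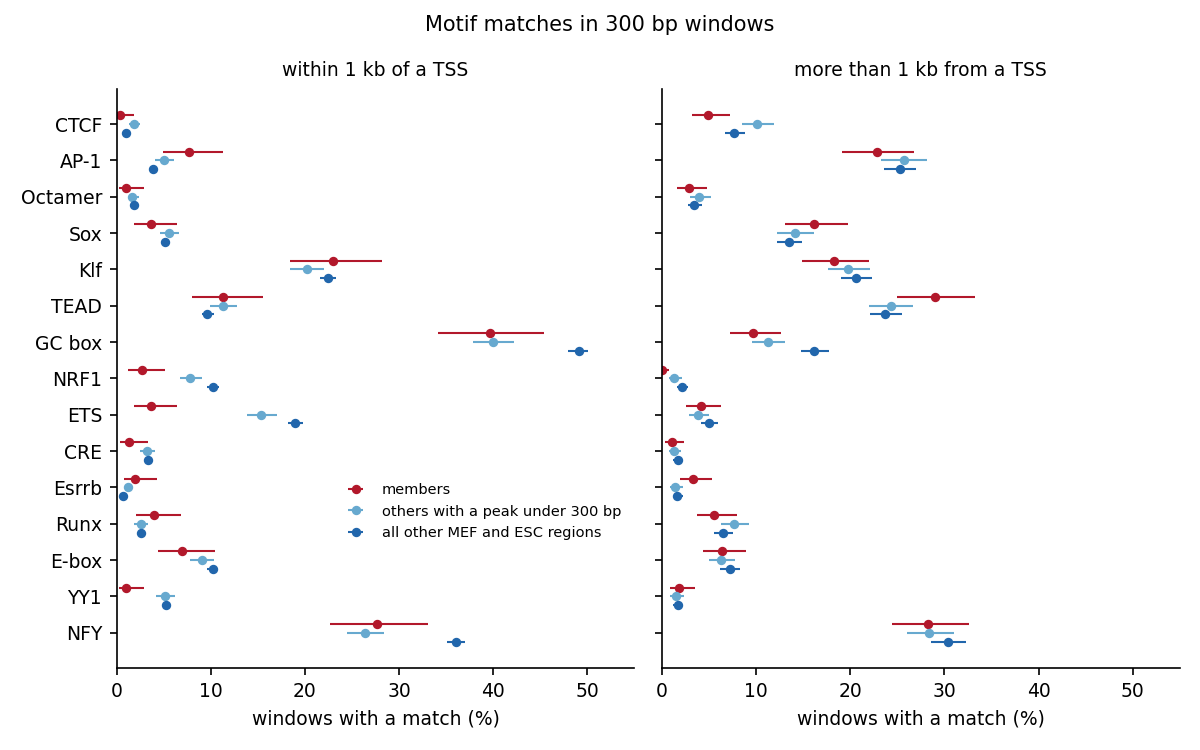
Share of 300 bp windows with a match to each of 15 motifs, for members, other MEF and ESC regions with a peak under 300 bp and all other MEF and ESC regions, within 1 kb of a TSS and farther away, with exact 95% intervals. ETS, NRF1 and YY1 letters were less frequent in members near a TSS (3.67, 2.67 and 1.00%) than in the other regions near a TSS (19, 10.2 and 5.29%). Regions lacking 1 day, not drawn, had 7.51, 5.96 and 2.85%, with intervals that overlapped those of members.

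Among the 290 members called on day 0 and in ESCs alone, 65 lay within 1 kb of a protein-coding TSS. The 12 with the widest narrower peak were at AI467606, Clcn2, Fam83g, Hesx1, Trpc6, Sh3tc1, Thap4, Snx31, the shared promoter of Dtx3l and Parp9, Mmp28, Arsi and Cdca7. At Hesx1, a homeobox gene of forebrain and pituitary development, the merged region (chr14:26994112-26994636) held a day 0 peak of 444 bp and an ESC peak of 442 bp that shared 361 bp. The nearest peaks on days 1, 2, 3, 6 and 9 were 23126, 23245, 23196, 23186 and 23139 bp away, so that all 5 doxycycline libraries left it equally isolated.

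Trpc6 encodes a calcium-permeable cation channel. Its member (chr9:8543886-8544624) had peaks of 409 bp on day 0 and 739 bp in ESCs, and the nearest peak of any doxycycline library was 156296 bp away, on day 6. At Clcn2, which encodes a chloride channel, the peaks were 609 and 465 bp wide (chr16:20715900-20716582), with peaks 618 to 752 bp away in all 5 doxycycline libraries. Here and at Dtx3l and Parp9 (chr16:35938565-35939074), where the nearest doxycycline peaks were 455 to 633 bp away, the missing call lay beside chromatin that was called. At Dtx3l and Parp9, a ubiquitin ligase and its partner, another peak lay within 1 kb of the TSS on each of days 1, 3 and 6.

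Mmp28, a secreted metalloproteinase, had peaks of 428 bp on day 0 and 335 bp in ESCs (chr11:83462782-83463209). Cdca7, a gene linked to DNA methylation, had peaks of 301 and 311 bp (chr2:72476273-72476713). At AI467606, where the narrower peak was the widest of the 12, the peaks were 518 and 631 bp wide and shared 170 bp of a merged region of 979 bp. At Snx31, a sorting nexin, the overlap was 64 bp of peaks of 366 and 385 bp. Wide peaks in both libraries thus did not always cover the same stretch.

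The 8 members of the same pattern with the widest narrower peak farther than 1 kb from a protein-coding TSS lay in Gpc6, Maml3 and Rapgef2 and at 5 sites in no protein-coding gene body. The Maml3 member overlapped the TSS of a gene model that is not protein-coding. Gpc6 encodes a glypican, a cell surface proteoglycan. Its merged region (chr14:117930450-117931101) had a day 0 peak of 612 bp and an ESC peak of 580 bp with 540 bp in common, and no peak overlapped it on days 1, 2, 3, 6 or 9. The closest day 1 peak ended 21 bp from it and the closest day 3 peak 114 bp, whereas those of days 2, 6 and 9 were 70149, 70360 and 70570 bp away. By the rule it was missing in all 5 libraries, although the calls of days 1 and 3 ended almost beside it.

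The intergenic member on chromosome 3 (chr3:9398167-9398776) was better isolated. It had peaks of 530 bp on day 0 and 531 bp in ESCs, which shared 451 bp, and the nearest doxycycline peaks were 45095 to 93177 bp away. In Maml3, a Notch co-activator gene, the peaks were 500 and 571 bp wide (chr3:51908370-51908940), with a gap of 7317 bp on day 6 and 27232 to 27633 bp on the other days. In Rapgef2, which encodes an exchange factor for Rap GTPases, they were 469 and 581 bp wide (chr3:79261817-79262476). The other 4 of these members had peaks of 507 to 543 bp on day 0, and 477 to 532 bp in ESCs.

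Among the pluripotency genes listed, a member lay in the body of Lefty1. For this gene, a secreted inhibitor of Nodal, the day 0 peak was 433 bp and the ESC peak 207 bp wide (chr1:180936686-180937118), and the nearest doxycycline peaks were 2297 to 2509 bp away.

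Of the genes for fibroblast and matrix proteins, 2 of 17 had a member. In Sparc, a matrix glycoprotein gene, the member (chr11:55417993-55418528), 1370 bp from a TSS, had peaks of 427 bp on day 0 and 321 bp in ESCs with the nearest doxycycline peaks 1064 to 1427 bp away. In Col4a2, a basement membrane collagen, the peaks were 686 and 200 bp wide, and a day 3 peak of 272 bp was called. Of the epithelial genes, 2 of 10 had one. The desmoplakin promoter (Dsp) had peaks of 260 bp on day 0 and 234 bp on day 9, with an ESC peak of 355 bp, and a day 6 peak lay 99 bp away. In Llgl2, a polarity gene, the peaks were 204 bp on day 0 and 499 bp in ESCs.

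Both catalytic subunits of Polycomb repressive complex 2 had a TSS-proximal member. At Ezh1 (chr11:101226100-101226719) the peaks were 620 bp on day 0 and 587 bp in ESCs, day 6 and day 9 had peaks of 257 and 205 bp, and none was called on days 1, 2 and 3. At Ezh2 (chr6:47594230-47594616) the peaks were 200, 214, 268 and 337 bp on days 0, 2, 6 and 9, with an ESC peak of 240 bp. A peak lay 236 bp from the Ezh2 member on day 1 and 58 bp on day 3, within 1 kb of the same TSS. The chromatin regulators had a member for 4 of the 48 genes with a MEF and ESC region, Hdac4 and Chd2 being the others.

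**Figure D5:**
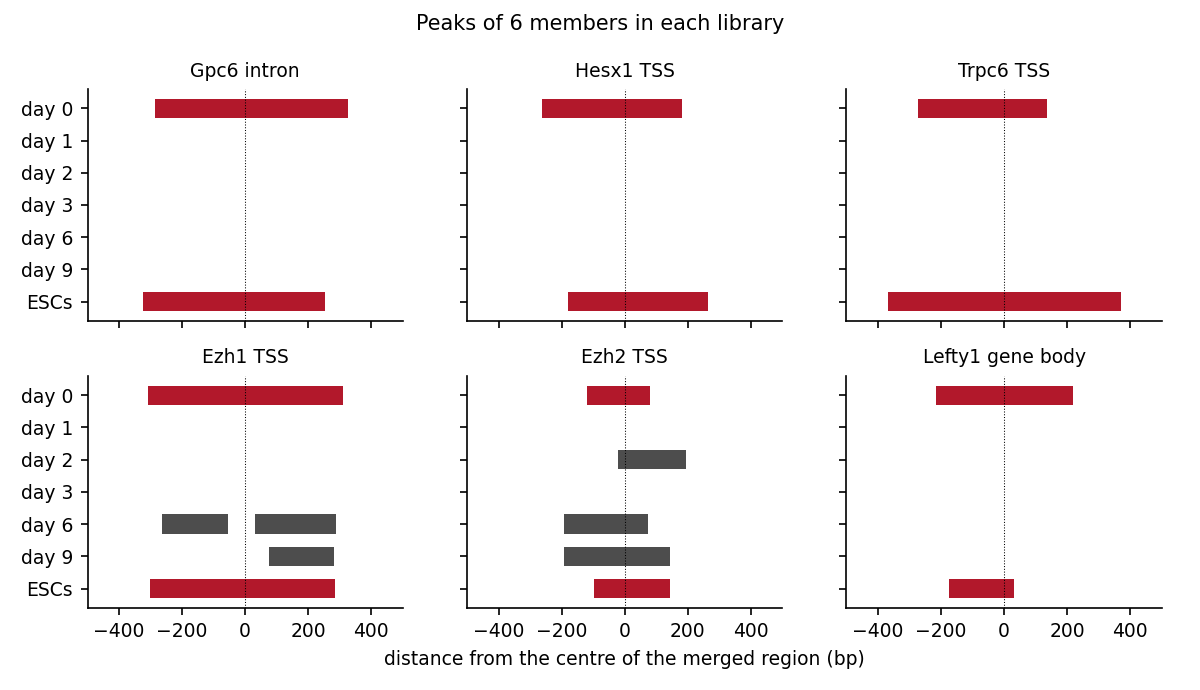
Peaks of 6 members in the 7 libraries, drawn against the distance in bp from the centre of the merged region, with day 0 and ESC peaks in red and peaks of doxycycline libraries in grey. Only peaks inside the merged region are drawn. The day 1 and day 3 peaks beside the Gpc6 member (21 and 114 bp away) and the Ezh2 member (236 and 58 bp away) are left out. Gpc6, Hesx1, Trpc6 and Lefty1 were called in the MEF and the ESC library alone, Ezh1 was called again on days 6 and 9, and Ezh2 also had a day 2 peak.

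Of the genes in the 3 signalling lists, those named by the rule were as follows. Members lay at the promoters of Bmp7 and Tcf7 and in the bodies of Fgfr1 and Igf2r. Bmp7, a ligand of the BMP pathway, had peaks of 200, 201 and 204 bp on days 0, 6 and 9, with an ESC peak of 247 bp. Tcf7, a transcription factor of the Wnt pathway, had peaks of 272 bp on day 0 and 354 bp on day 3, with an ESC peak of 202 bp. In Fgfr1 the peaks were 200 and 495 bp wide, with others 855 to 945 bp away in the doxycycline libraries. In the imprinted receptor gene Igf2r they were 279 and 210 bp wide. A further 2 members fell in the annotated Fgfr2 model, which in this annotation spans Htra1 and Fam53b, so their gene is uncertain.

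Of the cell cycle and p53 genes, 3 of 30 had a member. At the shared promoter of Trp53 and Wrap53 the peaks were 472 bp on day 0 and 473 bp on day 6, with an ESC peak of 223 bp, and other peaks lay 465 and 466 bp away on days 3 and 1. At E2f3 they were 438, 414 and 200 bp on days 0, 3 and 9, with an ESC peak of 296 bp, and in Ccnd3 the day 0 peak of 205 bp, the day 6 peak of 200 bp, the day 9 peak of 229 bp and the ESC peak of 286 bp were all narrow. Of the developmental transcription factors, 6 of 42 had one. Gli2, a Hedgehog effector, had peaks of 591 bp on day 0 and 288 bp on day 3, with an ESC peak of 364 bp. Tead4 and Nfix also held a member each, named for having some of the wider narrower peaks of this list. Their day 0 peaks were 465 and 429 bp wide, but their ESC peaks only 266 and 242 bp. Tead4 also had peaks of 221, 200 and 224 bp on days 2, 6 and 9, and Nfix had a day 3 peak of 463 bp.

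Over all protein-coding genes with a MEF and ESC region, 560 of 10821 (5.18%) had a member. By list, the shares were 28.6% for pluripotency, 11.8% for fibroblast and matrix, 20.0% for epithelial, 3.45% for TGF-beta and BMP, 4.17% for Wnt, 17.6% for FGF and receptor kinases, 8.33% for chromatin regulators, 10.0% for cell cycle and p53, 14.3% for developmental transcription factors and 14.3% for imprinted genes, where 1 member counts for 2 overlapping genes. None of the 21 genes of the AP-1 and immediate early list that had a MEF and ESC region held a member. They had 29 such regions. Over all protein-coding genes, 5.18% of the genes and 5.09% of the regions were counted, so these numbers are too small to set the list apart. The lists rest on between 7 and 48 genes each, the shares take no account of gene length, and they were not tested.

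Aldh1l1, a folate enzyme gene, had 3 members, all called on day 0 and in ESCs alone. A pair of these lay side by side at its promoter, with day 0 peaks of 205 and 202 bp and ESC peaks of 250 and 207 bp. The third lay in the gene body, with peaks of 409 and 384 bp. A long gene model on chromosome 8, Gm20388, covered 8 members, but it runs over other genes, among them Fam92b, Piezo1, Cdh15, Spire2, Rab4a and Galnt2. Many members shared the smallest width of 200 bp, and the first 3 of them by position, in Dst, at Gpr45 and in Wnt10a, all had an ESC peak of 200 bp, and day 0 peaks of 566, 616 and 459 bp.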

How the data were processed

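ATAC-seq was analysed in 7 mouse libraries, 1 per time-point, grouped by their labels. Per the labels and methods, the authors used Trimmomatic for trimming, Bowtie2 for mapping to mm10 and Picard to drop duplicates, downsampled all libraries to 1 depth (value not given in the sources used here) and ran MACS2 on each library. The deposited files list peak positions only, without scores, so depth is unknown and weak sites near the calling threshold may be missed. Peaks were merged when touching or overlapping (tested on simulated data and compared with bedtools 2.31.1). TSSs, exons and introns came from GENCODE M21 and sequences from RefSeq GRCm38.p6, whose chromosomes no peak exceeded. The 1 member on an unplaced scaffold was left out of the sequence analyses. Motifs were fixed strings searched on both strands. Where a region held several peaks of a library, the widest gave its width. Shares carry exact (Clopper-Pearson) 95% intervals, computed with scipy 1.17.1, which cover counting error only. Members and lists were chosen with earlier results of these data known. Regions were named by rule: members called on day 0 and in ESCs alone with the widest narrower peak (12 within 1 kb of a protein-coding TSS and 8 farther away), up to 4 per gene list, the 3 narrowest, and genes with at least 3 members. The alternatives concerned peak width, list length, merging, overlap, the missing days, the TSS distance and the motif window. Members at 2 genes that the rule named are not reported here.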

Additional observations from a re-analysis of the deposited data

How the results depend on the processing

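The rule set the size of the class. The 788 members (6.26% of MEF and ESC regions) became 484 (5.57%) with peaks at least 300 bp wide, 394 (4.62%) where the day 0 and ESC peaks overlapped by 50% of both, 341 (2.71%) missing on all 3 days and 1546 (12.3%) missing on at least 1. The share alone moved to 7.20% with the 27074 widest peaks of each library, 5.52% with no peak within 500 bp and 7.59% missing on at least 3 of the 5 doxycycline days. Among regions with both peaks at 300 bp or more, a split chosen after seeing the data, it was 1.76%, and 16.3% with a peak under 300 bp.

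The TSS share of 38.1% became 56.0% with peaks at least 300 bp wide, 48.0% with equal list lengths, 34.0% with merging within 300 bp, 31.1% missing on all 3 days, 44.4% on at least 1, 34.6% within 500 bp, 32.2% at protein-coding TSSs and 45.8% with both peaks at 300 bp or more. The day 2 share of 15.1% became 35.0% with equal list lengths, 5.87% missing on all 3 days and 31% on at least 1. The day 9 share of 22.8% became 26.0% with peaks at least 300 bp wide, 42.6% with equal list lengths, 10.3% missing on all 3 days, 37.9% on at least 1 and 28.1% with both peaks at 300 bp or more. The cause was not tested. The other 30 values stayed within the interval or within 1.5 times of the count, and 35 of 45 motif shares did. Days 2 and 9 have no share where the rule used them. No paired analysis was possible because there is a single library per time-point. Depth, read counts per peak and replicate spread are unknown.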
